A study of Mus musculus with 8 samples.

Results

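The T cell receptor alpha and beta segments are the gene pieces from which a T cell builds the chains of its antigen receptor. They were taken as every gene of the deposited count table whose symbol starts with Trav, Trbv, Traj, Trbj, Trbd, Trac or Trbc, and 244 of the 56980 genes met this rule. Of these, 130 were Trav and 35 were Trbv segments (variable, V), 60 were Traj and 14 were Trbj segments (joining, J), 2 were Trbd segments (diversity, D), 1 was the alpha constant region Trac, and 2 were the beta constant regions Trbc1 and Trbc2. The annotation called 43 of the 244 pseudogenes. RNA-seq libraries came from Tregs sorted out of mouse peripheral blood by flow cytometry, 4 from HADA mice and 4 from control mice. The study defines sorted Tregs as CD4+CD25+ cells for its suppression assay and gives no markers for the RNA-seq sort. All animals were male C57BL/6j mice, bought at 8 weeks of age. HADA (high-altitude de-acclimatization) mice had lived for 28 days under the low pressure of an altitude of 6000 m, simulated in a chamber, before they were returned to normoxia, and control mice were never placed in the chamber. Because few cells were sorted, the cDNA was made with a low-input kit. The day after return on which the cells were sorted, and whether each library was a single animal, are not given in the sources used here, so p-values measure only the spread between these libraries.

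In a developing thymocyte the recombinase joins 1 V, 1 D and 1 J segment of the beta locus, and 1 V and 1 J segment of the alpha locus, cutting at recombination signals beside each segment. The rearranged V-(D)-J piece is then spliced to a constant region exon. Each T cell and its daughters carry 1 productive beta rearrangement and usually 1 productive alpha rearrangement, so a large and mixed population of T cells shows many V segments, and a few cells or a few large clones show a few.

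The sequences below are of segments on which the results turn, read from the mouse genome GRCm39 and written from 5′ to 3′ on the strand of the gene. For 3 V segments of chromosome 6, the last 36 bases are given in lower case and the heptamer of the recombination signal behind them in capitals. They lie at chr6:41155947-41155989 (Trbv19, plus strand), chr6:41165876-41165918 (Trbv20, plus strand) and chr6:41534618-41534660 (Trbv31, minus strand, the inverted segment that lies behind both beta constant regions).
Trbv19: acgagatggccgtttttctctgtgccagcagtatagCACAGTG
Trbv20: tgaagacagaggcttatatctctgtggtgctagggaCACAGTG
Trbv31: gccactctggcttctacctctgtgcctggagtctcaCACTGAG
The consensus heptamer CACAGTG, searched only directly behind the segment, stood behind 8 of the 22 Trbv segments not annotated as pseudogenes (36.4%) and behind 93 of the 110 such Trav segments (84.55%). Trbv19 and Trbv20 had it, and Trbv31 did not.

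The D segments are short, and are shown in capitals between their flanking signals (heptamer of 7 bases, spacer of 12 bases on the 5′ side, nonamer of 9 bases), at chr6:41510107-41510185 (Trbd1) and chr6:41519069-41519149 (Trbd2), both on the plus strand.
Trbd1: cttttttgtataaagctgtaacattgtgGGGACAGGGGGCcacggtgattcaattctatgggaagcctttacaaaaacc
Trbd2: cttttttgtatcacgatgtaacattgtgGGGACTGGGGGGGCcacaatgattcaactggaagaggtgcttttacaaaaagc
Trbd1 is 12 bases long and Trbd2 is 14, so a count on either comes from a read that crosses it into neighbouring sequence.

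Among the J segments, Trbj2-6, Trbj2-7, Traj17, Traj18 and Traj33 are shown because their counts are described below. Capitals mark the phenylalanine-glycine-any-glycine motif that closes the antigen-binding loop, searched on the strand of the gene. The segments lie at chr6:41520532-41520579, chr6:41520744-41520790, chr14:54439232-54439294, chr14:54438234-54438299 and chr14:54422815-54422871, all on the plus strand.
Trbj2-6: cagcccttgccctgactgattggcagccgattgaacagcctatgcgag
Trbj2-7: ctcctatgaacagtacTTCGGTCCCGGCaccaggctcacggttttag
Traj17: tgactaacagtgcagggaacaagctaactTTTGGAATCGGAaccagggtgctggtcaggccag
Traj18: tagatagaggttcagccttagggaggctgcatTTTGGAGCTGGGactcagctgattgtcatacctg
Traj33: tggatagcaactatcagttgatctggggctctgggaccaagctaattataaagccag
The motif was found in 11 of the 13 Trbj segments not annotated as pseudogenes (84.62%) and in 42 of the 51 such Traj segments (82.35%). It was not found in Trbj2-6, which is annotated as a pseudogene, nor in Traj33.

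The HADA libraries held 22929193 to 28240337 counts in total, control replicates 2, 3 and 4 held 14452433 to 22584062, and control replicate 1 held 1477431, so results that its removal changes are given with and without it. A background density was taken from 1747 olfactory and vomeronasal receptor genes, which T cells do not use. It was 10.6, 8.12 and 3.45 counts per kb in control replicates 2, 3 and 4, 0.0797 in control replicate 1, and 1.91 to 5.02 in the HADA libraries. The summed level of 8 T cell genes (the CD3 chains, Cd4, Cd5, Cd6 and Thy1) was 127 to 1546 CPM (counts per 1000000 counts, TMM-normalized) in control and 1889 to 4173 CPM in HADA libraries. Foxp3, the defining factor of Tregs, had no count in any library, and 100% of its counted span lies inside other genes. The other regulatory T cell genes, of which Tnfrsf18 was also at 0, summed to 231 to 608 CPM in control and 689 to 2255 CPM in HADA libraries. In control replicates 2 and 3 most of this sum was Ikzf2 (6737 and 8205 counts), and no other gene of the list exceeded 701 counts there. Genes of other cells were present as well. Of 9 B cell genes, Ms4a1, Igkc and Iglc1 were at 0 throughout. The sum of the 9 was 233 to 6242 CPM in control and 2617 to 7931 CPM in HADA libraries. Whether Tnfrsf18, Ms4a1, Igkc and Iglc1 lie inside other genes, as Foxp3 does, was not checked, so their values do not show absent RNA. The sum of 4 haemoglobin genes was 1023 to 28265 CPM in control and 144 to 2806 CPM in HADA libraries, and that of 6 myeloid genes was 47.1 to 1629 CPM and 729 to 3291 CPM. Of 14 listed gamma delta receptor genes 11 were found, all of the delta locus, with 7 at 0 and a sum of at most 4.35 CPM in any library. No gamma chain gene was found under the symbols searched, so RNA of the gamma chain was not measured. The part of these other cells in the results was not tested.

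Not every segment could be counted. At least 1 count was found for 206 of the 244 segments and 38 were at 0 in all 8 libraries. For 7 of the 38 the whole span lies inside other annotated genes, and all 13380 genes of the table in that position were at 0. For 24 of the 38 no window of 100 bases occurs only at that place in the 2 loci. The duplicated d and n blocks of the alpha locus hold 74 of the 130 Trav segments and 25 of the 38 segments at 0. Shares among Trav segments are therefore shares of what could be counted, and counts of d and n copies are uncertain because the counting could split or drop their reads.

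The beta constant regions were higher in every HADA library than in every control library, while the alpha constant region overlapped between groups. Trac, which ends the alpha chain and anchors it in the membrane, had 768, 778, 2353 and 9311 counts in control replicates 1 to 4 and 12515, 7445, 19831 and 33481 in HADA replicates 1 to 4. In CPM this was 281 ± 265 (SD, n = 4) in control and 997 ± 771 (SD, n = 4) in HADA, and the lowest HADA library (312 CPM) lay under control replicates 1 (477 CPM) and 4 (540 CPM). The fold change of Trac was 1.83 on the log2 scale (SE 0.988, edgeR quasi-likelihood test, adjusted p = 0.237), which did not pass the test.

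Trbc1 had 558, 52, 385 and 1134 counts in the control libraries and 23046, 9238, 12458 and 16738 in the HADA libraries. Trbc2 had 1161, 1303, 2718 and 3512 counts in control and 29467, 18577, 20566 and 30414 in HADA. The groups did not overlap for either gene in CPM: the highest control library was replicate 1, at 347 CPM for Trbc1 and 721 CPM for Trbc2, and the lowest HADA library was replicate 2, at 387 CPM and 778 CPM. The log2 fold change was 2.83 (SE 1.23, edgeR adjusted p = 0.172) for Trbc1 and 2.23 (SE 0.884, edgeR adjusted p = 0.148) for Trbc2. With edgeR neither passed over all 8 libraries, and with DESeq2 Trbc2 did (log2 fold change 2.21, DESeq2 adjusted p = 0.0427). Both passed with edgeR without control replicate 1, with log2 fold changes of 4.92 (edgeR adjusted p = 0.0247) and 3.58 (edgeR adjusted p = 0.0149). The coding parts of Trbc1 and Trbc2 are near copies, and 88.3% and 88.0% of their windows of 100 bases occurred in 1 place only. In bulk samples, fewer T cells and less receptor RNA per cell cannot be told apart.

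All segments and constant regions together took 0.195%, 0.0194%, 0.0261% and 0.079% of all counts in control replicates 1 to 4 and 0.273%, 0.182%, 0.266% and 0.37% in HADA replicates 1 to 4. The means were 0.0800% ± 0.0814 (SD, n = 4) and 0.273% ± 0.0766 (SD, n = 4), a difference that did not pass (exact two-sided permutation test, p = 0.0571, adjusted p = 0.152 over 8 single values). Control replicate 1 was the only control library within the HADA range. Without it the groups differed by 0.231 percentage points (p = 0.0286 by the same exact test, which can go no lower). Constant regions alone took 0.0680% ± 0.0703 (SD, n = 4) of counts in control and 0.224% ± 0.0618 (SD, n = 4) in HADA, with the same p of 0.0571 by the exact test.

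**Figure D1:**
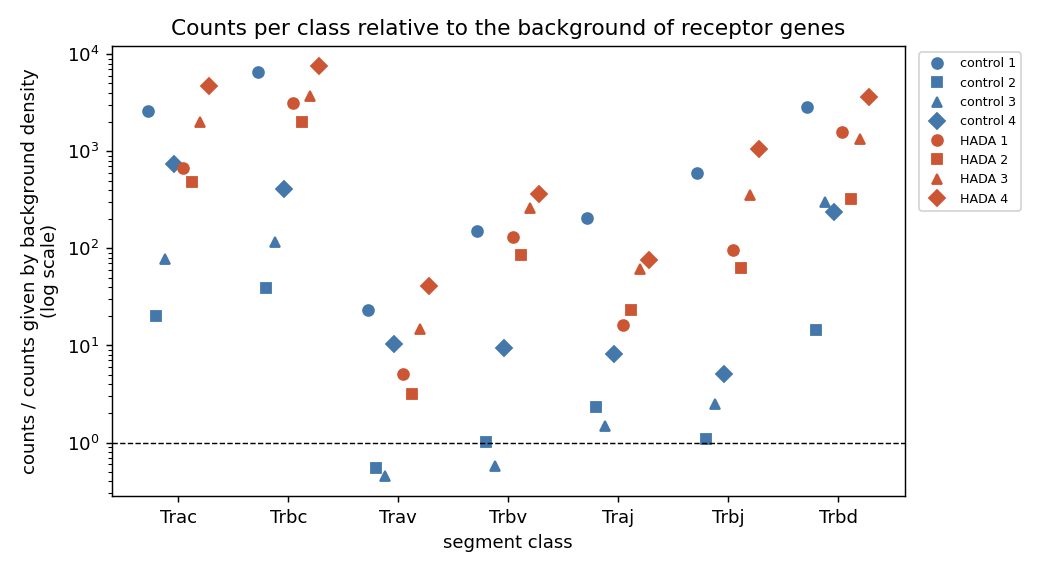
Counts of each segment class divided by the counts that the background density of receptor genes would give over the same length (log axis; the dashed line is a ratio of 1), for 4 control (blue) and 4 HADA (red) libraries. Control replicates 2 and 3 lie between 0.455 and 1.003 for Trav and Trbv but between 19.9 and 116 for Trac and Trbc.

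Set against the background density, the V counts of control replicates 2 and 3, summed per chain, could not be told from background. In these libraries the 153 and 67 Trbv counts were 1.003 and 0.574 times what background would give over the same length. The 412 and 261 Trav counts were 0.549 and 0.455 times. In the same libraries Trac was 19.9 and 78.6 times, and Trbc 38.8 and 116 times, above that background. Single V segments were not tested against it, and in control replicate 2 Trbv12-1 alone held 26 of the 153 Trbv counts. Control replicate 4 held 462 Trbv counts (9.33 times background) and 2499 Trav counts (10.3 times). Control replicate 1, at its far smaller depth and lower background, held 171 Trbv counts (149 times) and 131 Trav counts (23.2 times). In the HADA libraries Trbv counts were 9464, 5087, 10086 and 10033, or 84.8 to 365 times background, and Trav counts were 1815, 934, 2821 and 5565, or 3.16 to 41.1 times.

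Relative to the constant region, Trbv counts were more numerous in every HADA library than in every control library. For every 100 Trbc counts there were 9.95, 11.3, 2.16 and 9.94 Trbv counts in control replicates 1 to 4 and 18.0, 18.3, 30.5 and 21.3 in HADA replicates 1 to 4. The means were 8.34 ± 4.17 and 22.0 ± 5.86 (SD, n = 4 each; p = 0.0286 by the exact two-sided permutation test, with and without control replicate 1). After adjustment over 14 further single values the p of this exact test was 0.08, which did not pass. For every 100 Trac counts there were 11.1 to 53.0 Trav counts in control and 12.5 to 16.6 in HADA, and the groups overlapped (exact two-sided permutation test, p = 0.257). Both ends of this control range came from replicates 3 (11.1) and 2 (53.0), and control replicates 1 and 4 held 17.1 and 26.8. V counts of control replicates 2 and 3 summed to background, so their V ratios, for Trbv as for Trav, cannot be told from those of background. The length-corrected ratio of Trbc to Trac was 0.56 to 2.51 in control and 1.58 to 4.71 in HADA libraries, again overlapping (exact two-sided permutation test, p = 0.2).

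Of the 244 segments 32 passed the filter on low counts and were tested with edgeR. With a threshold of 0.05 on the adjusted p and of 1 on the size of the log2 fold change, 7 segments rose in HADA and 0 fell, against 1.65% of all 21991 genes that rose and 0.477% that fell. At an unadjusted p below 0.05, 14 segments were higher and 0 lower, against 12% and 14.7% of all genes tested. A segment that passed the filter only through its HADA libraries had to differ, so the share of the tested segments that rose is no evidence by itself. The groups did not overlap for 11 of the 32, all with HADA above control, against 9.13% of all genes tested. DESeq2 took 206 segments, of which 122 had no adjusted p. It called 20 higher (4.84% of all its genes) and 1 lower (7.88% of all its genes). The 1 lower was Trav2, a low segment with 0, 9, 11 and 4 control counts and 0 in all HADA libraries. Trav2 is named because it was the 1 lower call, after its values were seen. edgeR without control replicate 1 called 27 of the 39 segments it tested higher, in a fit in which 15.5% of all genes rose.

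The 5 V segments that rose were of the beta chain, of which 14 V segments were tested, against 6 of the alpha chain. Trbv20 had 0, 1, 0 and 2 counts in control replicates 1 to 4 and 197, 251, 615 and 1084 in HADA replicates 1 to 4. Every HADA library was far above every control library, and no control library rose past the floor of 3 counts. Its log2 fold change was 9.28 (SE 1.45, edgeR adjusted p = 0.0108). Pooled over each group, 2147 HADA counts stood against 3 control counts, a depth-corrected ratio of 687 with a 95% exact counting interval of 235 to 3332. The interval covers counting error only.

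Trbv19 had 3, 9, 4 and 1 counts in control and 728, 848, 1157 and 1604 in HADA, at 0.586 ± 0.857 CPM and 57.3 ± 31.3 CPM (SD, n = 4 each). It was the highest Trbv segment by mean CPM in HADA, and its log2 fold change was 7.21 (SE 1.34, edgeR adjusted p = 0.0227). Trbv3 had 2, 1, 0 and 3 counts in control and 681, 633, 992 and 183 in HADA (log2 fold change 7.50, SE 1.596, edgeR adjusted p = 0.0344). Trbv31, the inverted segment behind the constant regions, had 3, 4, 6 and 1 counts in control and 499, 245, 404 and 1232 in HADA (log2 fold change 6.52, SE 1.39, edgeR adjusted p = 0.0344). For these 3 segments no control library held more than 9 counts and no HADA library fewer than 183. The fifth, Trbv2, was named after its values were seen, and ranged from 0.0939 to 2.49 CPM in control and from 7.87 to 53.3 CPM in HADA (log2 fold change 5.76, SE 1.28, edgeR adjusted p = 0.0413).

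The other 2 were J segments of the second beta cluster. Trbj2-7 had 0 counts in every control library and 102, 45, 67 and 22 in HADA replicates 1 to 4. Its mean of 2.80 CPM in HADA was at least 5.002-fold higher than the mean of the control floors, each taken as 3 counts in its library, and edgeR gave an adjusted p of 0.0093. Trbj2-6, the annotated pseudogene, had 0, 0, 2 and 2 counts in control and 57, 20, 117 and 21 in HADA (log2 fold change 5.56, SE 1.06, edgeR adjusted p = 0.0244). A count on a J segment can come from a spliced receptor message or from RNA of an unrearranged locus, and these cannot be told apart here.

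**Figure D2:**
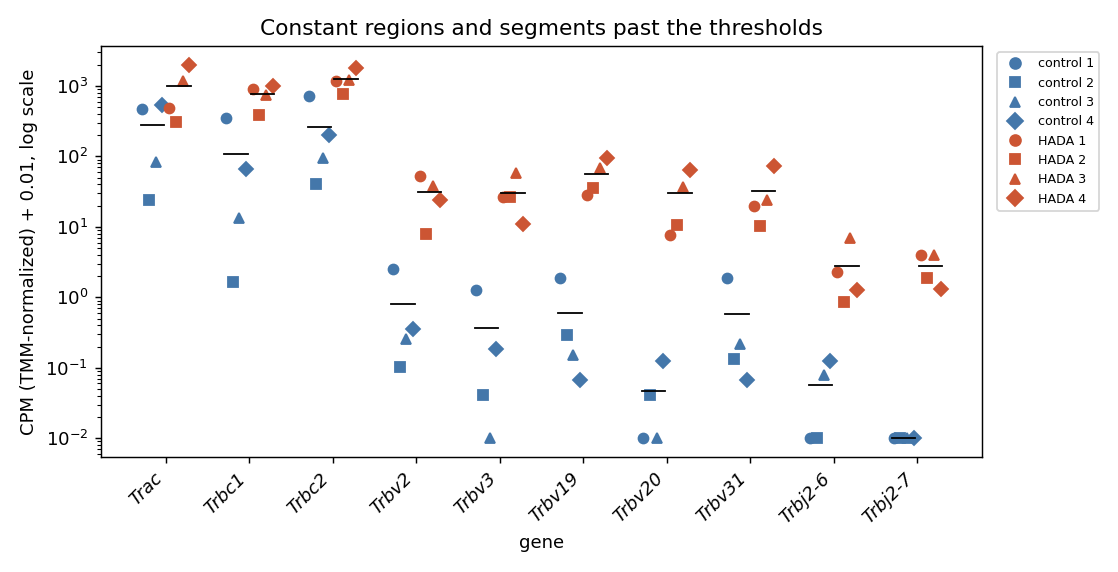
CPM (TMM-normalized, plus 0.01, log axis) of the 3 constant regions and the 7 segments past the thresholds in 4 control (blue) and 4 HADA (red) libraries, with a black line at each group mean. For Trac the groups overlap between 312 and 540 CPM; for the other genes every HADA library lies above every control library.

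These calls depended on which libraries entered the fit. Without control replicate 3 the count of segments that rose was 0, although 18 of the 48 tested then had an unadjusted p below 0.05 by edgeR. Leaving out control replicate 2 gave 1, and leaving out control replicate 4 gave 2. Calls over all genes were fewer in these fits too: 0.123% of all genes tested rose without control replicate 3, 0.528% without control replicate 2 and 0.251% without control replicate 4. The count of segments that rose was 4 without HADA replicate 1, 3 or 4 (of 42, 39 and 33 tested), and 8 without HADA replicate 2 (of 43 tested). Of all genes tested, 0.517%, 0.865% and 1.03% rose without HADA replicate 1, 3 or 4, and 0.887% without HADA replicate 2. Over the 8 fits that left out 1 library, the log2 fold change of Trbv20 stayed at or above 8.71 with edgeR adjusted p between 0.00793 and 0.0548.

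Trbv13-2 and Trbv13-3, close relatives that share their family with Trbv13-1, showed the same order without passing the test. Trbv13-2 had 26, 8, 1 and 1 counts in control and 1006, 432, 1078 and 921 in HADA, and Trbv13-3 had 17, 5, 0 and 0 against 785, 670, 1815 and 222. The groups did not overlap in CPM for either, and the log2 fold changes were 3.56 (SE 1.66, edgeR adjusted p = 0.191) and 4.29 (SE 1.91, edgeR adjusted p = 0.178). Control replicate 1, at 16.2 and 10.6 CPM, stood above the other control libraries for both. Without it both passed, at 8.64 (edgeR adjusted p = 0.0048) and 9.64 (edgeR adjusted p = 0.009). Trbv12-2 had 34, 14, 1 and 0 counts in control and 311, 570, 1268 and 0 in HADA, so that its groups overlapped (log2 fold change 2.47, SE 2.04, edgeR adjusted p = 0.418). Control replicate 1 was again the highest control library, at 21.1 CPM, and without it the log2 fold change was 7.52 (edgeR adjusted p = 0.0444).

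The makeup of the V counts was described by shares within each chain and library. In control replicates 2 and 3, whose summed V counts were at the background level, these shares cannot be read as usage. In HADA, Trbv counts were spread over many segments, about equally evenly in each library. The effective number of Trbv segments (the number of equally used segments that would give the same Shannon entropy) was 11.6, 12.2, 11.5 and 11.8 in HADA replicates 1 to 4, or 11.8 ± 0.288 (SD, n = 4). In control it was 8.58, 18.6, 20.4 and 1.73, or 12.3 ± 8.77 (SD, n = 4). The means did not differ beyond the spread (exact two-sided permutation test, p = 1). The high control values were those of replicates 2 and 3. With background subtracted the effective number was 8.55 and 1.34 in control replicates 1 and 4 and 11.5, 11.98, 11.5 and 11.8 in HADA. The values left in control replicates 2 and 3, 7.50 and 5.77, are the remainder of counts that summed to background and cannot be read as usage. The exact two-sided permutation test on this scale gave p = 0.0286 (adjusted p = 0.08 over the 14 further values). Because of these 2 libraries it cannot be read as a difference in usage.

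**Figure D3:**
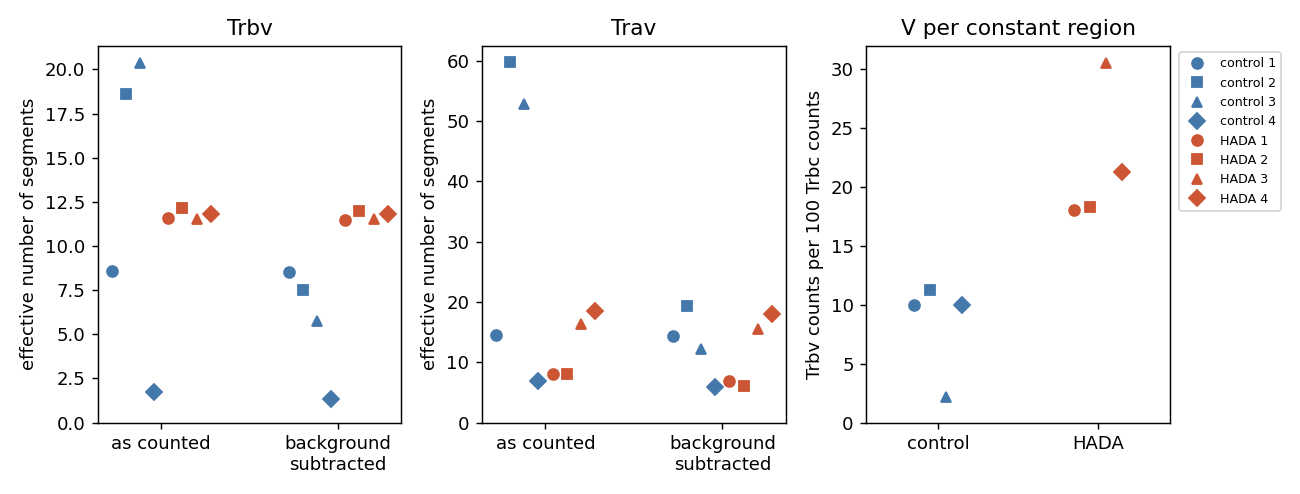
Effective number of Trbv (left) and Trav segments (middle), as counted and after background subtraction, and Trbv counts per 100 Trbc counts (right), for 4 control (blue) and 4 HADA (red) libraries. The HADA libraries lie between 11.5 and 12.2 for Trbv as counted, while the control libraries run from 1.73 to 20.4. V counts of control replicates 2 and 3 summed to background, so their points cannot be read as usage.

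By a rule chosen after the data were seen (at least 10 counts and at least 10 times the background for its length), 14, 17, 15 and 16 Trbv segments stood above background in HADA replicates 1 to 4 and 6, 0, 0 and 1 in control replicates 1 to 4. In HADA these segments held 99.72% to 99.95% of the Trbv counts of their library. Of the 35 Trbv segments, 10 were above background in all 4 HADA libraries (Trbv1, Trbv2, Trbv3, Trbv13-1, Trbv13-2, Trbv13-3, Trbv16, Trbv19, Trbv20 and Trbv31). 15 were above it in none of the 4. In control replicate 1 the 6 segments above background (Trbv1, Trbv12-2, Trbv13-1, Trbv13-2, Trbv13-3 and Trbv15) held 87.1% of its Trbv counts. In control replicate 4 it was Trbv29 alone, with 419 of 462 Trbv counts, or 90.7% (95% Wilson interval 87.7% to 93.0%). Trbv29 took 2.7% of Trbv counts in HADA replicate 1 and under 1% in the other 3 HADA libraries. Its log2 fold change was -0.72 (SE 1.73, edgeR adjusted p = 0.79), and 4.59 (edgeR adjusted p = 0.23) without control replicate 4.

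**Figure D4:**
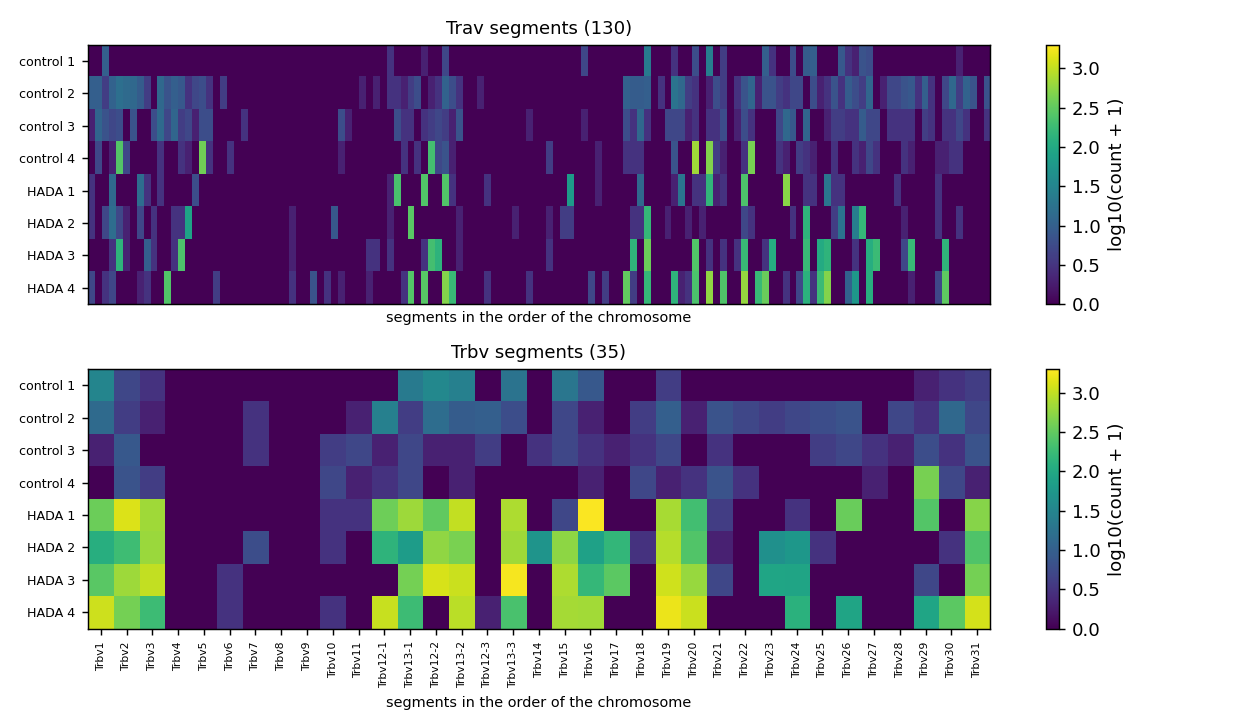
Counts of the 130 Trav (top) and 35 Trbv segments (bottom), as log10(count + 1) in colour, with libraries in rows and segments in chromosome order. The Trbv rows of the 4 HADA libraries are bright across 14 to 17 segments, whereas their Trav rows show scattered bright segments that differ from library to library.

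The largest Trbv segment of a HADA library took between 15.99% and 20.002% of its Trbv counts. It was Trbv16 in replicate 1 (20.002%, Wilson interval 19.2% to 20.8%), Trbv19 in replicates 2 (16.7%) and 4 (15.99%), and Trbv13-3 in replicate 3 (18.0%). Trbv16 took 1.5% and 1.6% in HADA replicates 2 and 3, so the leading segment was not shared by all 4. Trbv19 took 3.46% ± 2.92 of Trbv counts in control and 13.0% ± 4.20 in HADA (SD, n = 4 each). Trbv3 took 0.618% ± 0.479 and 7.82% ± 4.54, and Trbv20 took 0.272% ± 0.326 and 5.98% ± 3.63 (SD, n = 4 each). For these 3 segments every HADA share was above every control share. Shares of control replicates 2 and 3 cannot be read as usage, so these control means and the tests do not measure usage alone. In control replicates 1 and 4 the shares were 1.75% and 0.22% for Trbv19, 1.17% and 0.65% for Trbv3, and 0% and 0.43% for Trbv20. These 3 were the only ones of 98 V segments tested (68 Trav and 30 Trbv, each with at least 1% of its chain in some library) at the smallest p of the exact two-sided permutation test, 0.0286. None of the 98 passed after adjustment, the smallest adjusted p being 0.689, and a few segments at the smallest p that 4 libraries against 4 allow cannot pass. The 98 include segments let in by few counts of control replicates 2 and 3, which raises the number of tests adjusted for. An example is Trbv28, at 2.61% and 1.49% there and 0% in every HADA library.

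Trbv shares also lay closer to each other among HADA libraries than Trav shares did. The Bray-Curtis dissimilarity of Trbv shares (0 for equal makeup, 1 for no shared segment) ran from 0.158 to 0.494 over the 6 pairs of HADA libraries, with a median of 0.443. For Trav shares it ran from 0.655 to 0.972 over the same pairs, with a median of 0.837. The chains are unlike in this measure: 35 Trbv segments held 5087 to 10086 counts per HADA library, and 130 Trav segments 934 to 5565. Of these Trav counts 35.1% to 59.0% were on d and n copies, whose counts are uncertain. The part of these differences was not tested. HADA replicates 2 and 3 were the closest pair for Trbv, and HADA replicates 1 and 2 the farthest for Trav. Among pairs of control libraries the Trbv median was 0.789 and the range 0.540 to 0.949. The lowest, 0.540, was between control replicates 2 and 3, whose V counts summed to background. Pairs with these libraries cannot be read as a comparison of usage.

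Trav usage was uneven in HADA, with a few segments high in 1 or 2 libraries and near 0 in the rest. Of 130 Trav segments, 21 stood above background in exactly 1 HADA library, 10 in 2, 3 in 3 and 0 in all 4. The numbers per library were 7, 6, 16 and 21 in HADA and 2, 0, 0 and 6 in control. The groups touched at 6 and the difference did not pass (exact two-sided permutation test, p = 0.0571, adjusted p = 0.133). The effective number of Trav segments was 14.4, 59.7, 52.8 and 6.89 in control and 8.08, 7.98, 16.3 and 18.5 in HADA, and the groups overlapped (exact two-sided permutation test, p = 0.343). The 59.7 and 52.8 are of control replicates 2 and 3, whose V counts summed to background. This test therefore cannot be read as a comparison of usage. With background subtracted the effective number was 14.4 and 5.89 in control replicates 1 and 4 and 6.97, 6.05, 15.6 and 18.1 in HADA.

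Trav9-2 led HADA replicate 1 with 520 counts (28.7% of its Trav counts) and had 0, 0 and 2 counts in the other HADA libraries. Trav14d-3-dv8 led HADA replicate 2 with 287 counts (30.7%), had 259 in HADA replicate 4 and 0 in replicates 1 and 3. Trav14n-3, of the same family, had 0, 155, 365 and 156 counts in HADA and 21, 9, 2 and 0 in control. Its log2 fold change was 1.70 (SE 1.85, edgeR adjusted p = 0.539), and 6.33 (edgeR adjusted p = 0.0425) without control replicate 1. Trav7-5 was high in 3 HADA libraries, with 239, 4, 172 and 595 counts in HADA and 0, 6, 5 and 2 in control. It was not among the 32 segments tested over 8 libraries.

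Control replicate 4 had its own leading Trav segments. Trav7-4 had 678 counts there (27.1% of Trav counts, Wilson interval 25.4% to 28.9%), against 5, 2 and 2 in the other control libraries and 2, 0, 249 and 231 in HADA. Trav9-1 had 472, against 25, 1 and 2 in the other control libraries and 148, 0, 2 and 569 in HADA. Only 37.5% of the windows of Trav9-1 occur in 1 place, since it belongs to a family of near copies. The log2 fold changes of -0.58 and -0.09 for Trav7-4 and Trav9-1 had standard errors of 1.90 and 1.92 and did not pass (edgeR adjusted p = 0.848 and 0.978). The top 5 Trav segments held 88.4% of Trav counts in control replicate 4 and 43.9% to 87.4% in the HADA libraries.

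The beta J segments were sparse in control and varied between HADA libraries. Trbj counts were 33, 8, 14 and 12 in control and 332, 182, 675 and 1395 in HADA. The 2 that rose, Trbj2-6 and Trbj2-7, were the only Trbj segments above background in all 4 HADA libraries by the rule given above. Trbj1-1 had 0, 4, 0 and 0 counts in control and 48, 1, 14 and 92 in HADA, and Trbj1-6 had 8, 0, 0 and 10 against 9, 45, 22 and 112. The Trbj1 cluster, which lies before Trbc1, took 93.9%, 75.0%, 35.7% and 83.3% of Trbj counts in control and 38.9%, 64.3%, 48.0% and 94.8% in HADA. The groups overlapped (exact two-sided permutation test, p = 0.629). HADA replicate 4 stood apart with 94.8%, from 92 to 308 counts on each segment from Trbj1-1 to Trbj1-6 but 89 on Trbj1-7.

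**Figure D5:**
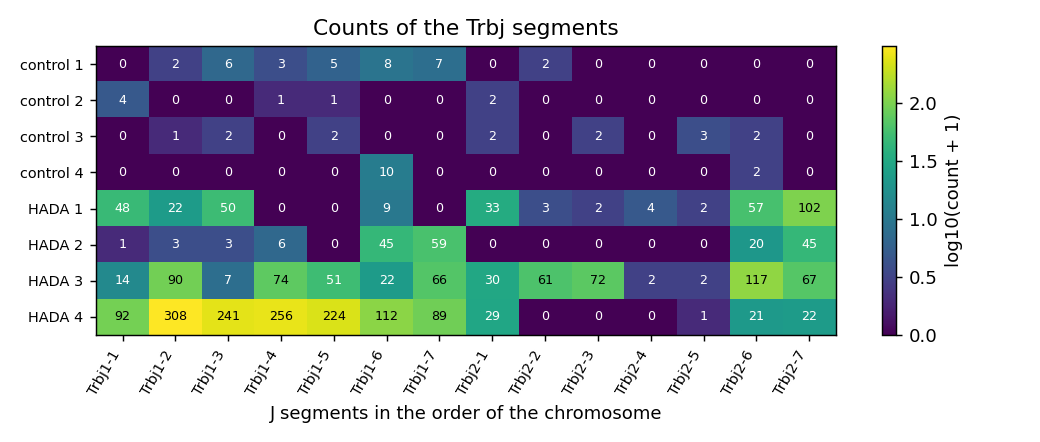
Counts of the 14 Trbj segments in 4 control and 4 HADA libraries, printed in each cell and coloured as log10(count + 1). Trbj2-7 is 0 in every control library and between 22 and 102 in the HADA libraries, and HADA replicate 4 is highest on the Trbj1 cluster.

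Among beta constant regions, Trbc1 took 32.5%, 3.84%, 12.4% and 24.4% of Trbc counts in control and 43.9%, 33.2%, 37.7% and 35.5% in HADA. Every HADA library lay above every control library, by 0.752 percentage points at the nearest pair, control replicate 1 and HADA replicate 2. The means were 18.3% ± 12.7 and 37.6% ± 4.59 (SD, n = 4 each; p = 0.0286 by the exact two-sided permutation test), and the adjusted p of 0.152 over the 8 single values did not pass. Leaving out any 1 HADA library gave p = 0.0571 by the same exact test. Trbd1 had 0, 0, 3 and 21 counts in control and 100, 27, 75 and 70 in HADA (log2 fold change 3.16, SE 1.11, edgeR adjusted p = 0.121). Trbd2 had 6, 4, 60 and 0 against 107, 8, 19 and 111, and overlapped between groups.

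Alpha J counts were also low, at 59, 89, 43 and 101 in control and 291, 343, 600 and 522 in HADA, spread over 60 segments. Traj27 had 9, 1, 0 and 79 counts in control and 3, 46, 122 and 106 in HADA, and the groups overlapped. Traj17 had 6, 2, 0 and 0 counts in control and 179, 2, 76 and 50 in HADA (log2 fold change 3.45, SE 1.87, edgeR adjusted p = 0.238). Without control replicate 1 it was 7.08 (edgeR adjusted p = 0.017). Traj18 had 0, 0, 1 and 1 counts in control and 6, 37, 107 and 86 in HADA, with no overlap. Pooled over groups its ratio was 113, with a 95% exact counting interval of 31.0 to 940, and it was not among the 32 segments tested over 8 libraries.

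Traj18 is the J segment that invariant natural killer T cells join to Trav11. Trav11 had at most 2 counts and Trav11d at most 3 counts in any library. 0% of the windows of either occur in 1 place, so reads from them may not have been counted and nothing can be read from these values. Traj33 and Trav1, which mucosal-associated invariant T cells join, showed no joint pattern. Traj33 had 6, 4, 0 and 0 counts in control and 0, 73, 0 and 0 in HADA, and Trav1 had 0, 9, 1 and 0 against 2, 2, 0 and 4.

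Segments annotated as pseudogenes took 0%, 13.5%, 14.6% and 7.63% of V counts in control and 0.16%, 1.36%, 2.29% and 0.91% in HADA. The means were 8.93% ± 6.69 and 1.18% ± 0.889 (SD, n = 4 each) and control replicate 1 lay below the HADA range (exact two-sided permutation test, p = 0.143). Without that library the difference was -10.7 percentage points (p = 0.0286 by the same exact test). V counts of control replicates 2 and 3 summed to background, so their shares cannot be read as usage and neither p measures it. The 0 of 302 V counts in control replicate 1 allow a share of up to 0.993%, for counting error only. Trbv24 had counts in each HADA library, with 2, 54, 83 and 129 in HADA and 0, 4, 0 and 0 in control. Trav9n-1 had 206 counts in control replicate 4 and 205 in HADA replicate 3, and at most 3 elsewhere. In control replicate 4 it took 8.24% of Trav counts, where all pseudogene Trav segments together took 8.56%. Trbv24 and Trav9n-1 were named after their values were seen. Of Trav counts, 87.8%, 59.2%, 53.6% and 64.6% in control and 57.2%, 55.7%, 73.6% and 73.3% in HADA fell on the 65 segments nearer to the Traj cluster (exact two-sided permutation test, p = 0.914).

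The partners of the receptor were called by some fits and not by others. Of 8 genes of the receptor complex and its proximal signalling (Cd3d, Cd3e, Cd3g, Cd247, Cd4, Lck, Zap70 and Lat), all were tested and 0 passed in either direction with edgeR over 8 libraries. At an unadjusted edgeR p below 0.05, 4 were higher and 0 lower, against 12% and 14.7% of all genes tested. DESeq2 called 2 higher (4.84% of all its genes), and edgeR without control replicate 1 called 3 higher (15.5% of all its genes). The median log2 fold change of the 8 genes was 1.65, against 0.01 over all genes tested. Of the recombination genes, Rag1 and Rag2, which cut the segments, were at 0 in every library. Whether their spans lie inside other genes was not checked, so these values do not show that their RNA was absent. Dntt and Ptcra were tested and did not pass (edgeR and DESeq2, 0 at an unadjusted p below 0.05). A CD4+ gate, if used, should leave out the CD8 coreceptor genes. They summed to 0.621 to 2.76 CPM in control and 14.5 to 176 CPM in HADA libraries. Of the 2, Cd8b1 rose (against 1.65% of all genes tested), with 734, 340, 774 and 1820 counts in HADA and 1, 75, 36 and 32 in control. Cd8a had 4, 6, 464 and 1101 counts in HADA and 0, 13, 18 and 4 in control (edgeR adjusted p = 0.0889). The HADA libraries with most Cd8a and Cd8b1, replicates 3 and 4, also held most Trac and Trav counts, and the part of those cells in the segment counts was not tested. Among 11 trypsin genes that lie inside the beta locus between Trbv segments, 4 were tested with edgeR. Of these 0 rose, 2 fell and 3 were lower at an unadjusted p below 0.05, against 0.477% and 14.7% of all genes tested. DESeq2 took all 11 and called 4 lower and 0 higher, against 7.88% of all its genes lower. Their sum was highest in control replicates 2 and 3 (15.8 and 13.9 CPM), where background density was also highest, and the part of background was not tested.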

How the data were processed

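Tregs sorted by flow cytometry were sequenced in 4 HADA and 4 control libraries. Before deposit, the authors used FastQC and Trimmomatic for quality control and trimming, STAR for alignment to GRCm39, and featureCounts for gene counts. The deposited values are raw counts, without normalization, and tool versions and strand, multi-mapping and overlap settings are not given in the sources used here. The counted length equals the whole gene span for 100% of genes, so introns are included, and genes fully inside other spans are at 0.

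Symbols and segment types came from GENCODE vM39, in which 56236 of 56980 identifiers (98.7%) were found. For 241 of the 244 segments the coordinates were the same as in that annotation. Coordinates printed are those of the count table, and sequences were read from GRCm39. Differential expression was tested with edgeR 4.0.16 in R 4.3.3 (TMM, filterByExpr, quasi-likelihood test, Benjamini-Hochberg adjustment, adjusted p below 0.05 and log2 fold change beyond 1), with DESeq2 1.42.0, the tool of the study's methods, as an alternative. Values of single libraries were tested between groups by exact two-sided permutation (smallest p 0.0286 for 4 against 4), adjusted over 8 planned and, separately, 14 further values. Shares in single libraries have 95% Wilson intervals, and intervals and the floor of 3 counts cover counting error only. Subtracted background was the receptor-gene density times the segment's length not covered by other genes. Python 3.11.15, numpy 2.4.6, pandas 2.3.3 and scipy 1.17.1 were used, and the tests were tested on simulated data.

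The segments, the lists and the rule for named genes were chosen with earlier results of these data known. The rule takes the constant regions, Trbv20 and Trbv31, the 5 Trav, 5 Trbv, 3 Traj and 3 Trbj with the largest mean share, the 5 segments with the smallest p in each direction among those past the thresholds without overlap, and the segments of invariant T cells. Alternatives were other size factors, no filter, DESeq2, the replicate number as a block, other diversity indices, V families, no pseudogenes, background subtraction and leaving out 1 library at a time. The rule for segments above background was added after seeing the data.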

Additional observations from a re-analysis of the deposited data

Results flagged for a closer look

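In 50 groups of 4 libraries, 7 held a library whose gap to its nearest neighbour exceeded Dixon's 95% critical value, where chance gives about 1 in 20, or 2.5. Control replicate 1 was the far library for Trav14n-3 (13.0 CPM), Trbv12-2 (21.1 CPM) and Trbv13-2 (16.2 CPM). Control replicate 4 was far above the other controls for Trav7-4 (39.3 CPM) and Trbv29 (24.3 CPM). Among HADA libraries, replicate 2 was the far one for Traj33 (3.06 CPM) and replicate 4 for Trav9-1 (34.2 CPM). Groups with no library above 20 counts were left out.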

How the results depend on the processing

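The count of segments that rose was 7 with all 8 libraries, 7 with DESeq2 size factors, under which the median over all genes of the log2 fold change moved from 0.01 to -0.19, 10 with no filter, 20 with DESeq2 and 0 to 27 with each library left out. The count that fell was 0 in all of these except DESeq2, with 1. Of all genes, 1.28% rose with DESeq2 size factors, 0.976% with no filter and 4.84% with DESeq2, which called 7.88% lower. The fits with no filter and with DESeq2 each took 206 segments. Trbc2 passed with DESeq2. With the replicate number as a block 6 segments rose, against 0.718% of all genes. The numbers did not pair the libraries: correlations of same-numbered libraries were -0.21, 0.25, -0.08 and -0.003, and the paired exact test, whose smallest p is 0.125, gave p = 0.125 for the Trbc1 share difference of 19.3 points. The cause of these changes was not tested.

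The differences between HADA and control in single values moved as follows. The Trbv effective number differed by -0.551, but by 5.90 with background subtracted, where control replicates 2 and 3 cannot be read as usage. It differed by 2.47 without pseudogenes and by -4.08 to 2.13 with 1 library left out. The share of Trav segments nearer to the Traj cluster differed by -1.37 points, 1.77 with background subtracted and -5.60 to 5.78 with 1 library left out. The share of all counts on segments differed by 0.161 to 0.231 points, that on constant regions by 0.13 to 0.19, the pseudogene share by -10.7 to -5.85 and the Trbc1 share by 14.5 to 24.0 with 1 library left out. The log2 fold change of Trav9-1 turned to 0.083 with no filter and ranged from -2.34 to 1.10 with 1 library left out. That of Trav7-4 ranged from -1.11 to 3.398 and that of Trbv29 from -1.87 to 4.59, both highest without control replicate 4. The number of V segments with a shifted share was 0 after adjustment in every setting, with 0 to 11 at an unadjusted p below 0.05. Depth limits control replicate 1, where 3 counts are 0.000203% of the total.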
